A study of Mus musculus with 4 samples.

Results

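The 4 Hox clusters hold the homeobox genes that mark position along the body axis, and 38 of their genes, of 21627 protein-coding genes on chromosomes 1 to 19 and X, were examined for accessible chromatin in mouse T cells. The members were 10 genes of HoxA on chromosome 6, 10 of HoxB on chromosome 11, 9 of HoxC on chromosome 15 and 9 of HoxD on chromosome 2. A region, meaning a peak of the authors' lists, was assigned to a cluster when it overlapped the RefSeq gene body of a member or the 10 kb on either side (build mm10). The windows of the members joined into 1 stretch per cluster, except in HoxB, where Hoxb13 stood apart from Hoxb1 to Hoxb9. The stretches were 118 kb long in HoxA, 22.3 and 117 kb in HoxB, 136 kb in HoxC and 117 kb in HoxD. The members were chosen by name and not by measured values.

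Accessibility had been measured by ATAC-seq, in which the transposase Tn5 cuts and tags open DNA, on untreated primary cells. DN3 thymocytes, T cell precursors that carry CD25 and lack CD4, CD8 and CD44, came from the thymus by magnetic depletion and a flow cytometric sort, and splenic naive CD4 T cells were isolated with a magnetic kit. For each cell type there was 1 library from mice deficient in Scd1, the stearoyl-CoA desaturase of monounsaturated fatty acid synthesis, called the knockout here, and 1 library from their littermate controls. The control titles carry the letters HZ, which the labels do not explain, and the sources used here do not state strain, sex, age or the number of animals per library. Each group is 1 library, so no test was made, and each difference below is one between libraries. Tissue of origin and sorting method differ between the cell types and cannot be told apart from the cell type. The lists held 76814 regions in the DN3 control, 76437 in the DN3 knockout, 46576 in the naive control and 51297 in the naive knockout. In both DN3 libraries all 12 DN3 thymocyte markers had a gene-end region. This means a region at most 1 kb from where the gene starts or ends. In the naive pair (control, then knockout) 8 and 9 of the 12 had one, and Ptcra, Rag2 and Dntt had none in either. Of the 12, 8 had one in all 4 libraries, so most of these calls do not separate the cell types. Over all protein-coding genes the shares were 66.7% and 66.5% in the DN3 pair and 57.0% and 58.6% in the naive pair. All 10 naive CD4 markers had a gene-end region in all 4 libraries, so those calls do not separate the cell types either. Scd1 had a region in every library. Which part of Scd1 was deleted is not stated, so that does not check the genotype.

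Hox proteins bind DNA together with TALE cofactors of the Pbx and Meis families and specify segment identity in the embryo. The order of the genes along a cluster follows their order of use from head to tail, and genes in the same position of different clusters are called a paralog group. Polycomb complexes keep Hox genes silent and Trithorax-type complexes, among them Kmt2a, keep them active. In blood formation, HoxA and HoxB genes are used in stem and progenitor cells and are turned down as cells mature.

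The clusters also hold microRNAs that target Hox transcripts, and their mature sequences (RefSeq, GRCm38.p6) are shown because members of different clusters share a seed. Capitals mark bases 2 to 8, the seed.
miR-10a-5p, from HoxB: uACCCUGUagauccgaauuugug
miR-10b-5p, from HoxD: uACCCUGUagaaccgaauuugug
miR-196a-5p, from HoxB and HoxC: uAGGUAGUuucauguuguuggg
miR-196b-5p, from HoxA: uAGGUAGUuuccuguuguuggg
Counted from the 5′ end, miR-10b differs from miR-10a by U12A and miR-196b differs from miR-196a by A12C, so both differences lie outside the seed. In the files these same-seed genes sat in different surroundings. Mir196b, on chr6:52230081-52230165, lay inside a region in all 4 libraries, with a −log10 q of 15.2 and 15.6 in the DN3 pair (control, then knockout) and 17.1 and 13.1 in the naive pair. Mir196a-1, on chr11:96265164-96265265, was 3163 to 3362 bp from its nearest region. Mir196a-2, on chr15:102973350-102973434, was 1840 and 664 bp from a region in the DN3 libraries and 2983 and 2978 bp in the naive ones. Mir10a, on chr11:96317165-96317274, lay 803 to 814 bp from the Hoxb4 region in all 4 libraries. Mir10b, on chr2:74726070-74726137, lay 1013 and 1011 bp from a region in the DN3 libraries, and 9763 and 9835 bp from the nearest one in the naive libraries. Mir615, inside Hoxc5, was overlapped by a region in the DN3 control alone, and in the DN3 knockout the nearest region began 218 bp away.

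Promoters of 5 members are printed for their contrast in accessibility. Each is the 250 bases before the annotated start (RefSeq, GRCm38.p6), read in the direction of transcription. Capitals mark matches on either strand to TGATTNAT (a PBX-HOX site), TGACAG (MEIS), CCAAT (NF-Y) or GGGCGG (the GC box), and to the CTCF core and the retinoic acid direct repeat.
Hoxa3, chr6:52213068-52213317, minus strand: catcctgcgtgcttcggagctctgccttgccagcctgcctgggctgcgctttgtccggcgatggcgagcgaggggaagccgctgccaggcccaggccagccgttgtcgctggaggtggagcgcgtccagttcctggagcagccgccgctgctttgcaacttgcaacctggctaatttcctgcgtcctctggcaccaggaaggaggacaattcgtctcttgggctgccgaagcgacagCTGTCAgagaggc
Hoxb4, chr11:96318017-96318266, plus strand: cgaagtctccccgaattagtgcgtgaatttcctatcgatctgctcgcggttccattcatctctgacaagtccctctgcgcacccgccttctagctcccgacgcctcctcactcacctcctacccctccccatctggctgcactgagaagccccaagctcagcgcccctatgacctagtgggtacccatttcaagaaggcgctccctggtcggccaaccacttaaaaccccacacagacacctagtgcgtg
Hoxa2, chr6:52164832-52165081, minus strand: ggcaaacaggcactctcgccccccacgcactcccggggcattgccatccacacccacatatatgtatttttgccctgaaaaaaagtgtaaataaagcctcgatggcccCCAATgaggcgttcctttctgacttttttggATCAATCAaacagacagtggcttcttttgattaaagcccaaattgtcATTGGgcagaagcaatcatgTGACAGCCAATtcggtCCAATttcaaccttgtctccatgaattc
Hoxb1, chr11:96365508-96365757, plus strand: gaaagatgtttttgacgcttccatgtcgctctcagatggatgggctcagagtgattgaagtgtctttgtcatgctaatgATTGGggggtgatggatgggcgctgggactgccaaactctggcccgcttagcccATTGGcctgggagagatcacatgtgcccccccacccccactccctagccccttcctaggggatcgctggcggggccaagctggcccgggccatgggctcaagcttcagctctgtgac
Hoxa5, chr6:52204588-52204837, minus strand: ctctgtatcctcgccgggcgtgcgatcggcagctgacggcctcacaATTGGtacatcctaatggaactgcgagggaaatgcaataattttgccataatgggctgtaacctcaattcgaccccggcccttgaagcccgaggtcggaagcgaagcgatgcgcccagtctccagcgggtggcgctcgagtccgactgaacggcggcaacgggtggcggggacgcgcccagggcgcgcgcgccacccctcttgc
A region overlapped the promoter window, these bases and the 50 that follow, of Hoxa3 and Hoxb4 in all 4 libraries. At Hoxa2 it did so in 3, at Hoxb1 in the 2 DN3 libraries, and at Hoxa5 in none. The RefSeq table held 24 promoter windows of 22 members. Of these, 14 were overlapped in the DN3 control, 13 in the DN3 knockout, 8 in the naive control and 9 in the naive knockout, or 58.3%, 54.2%, 33.3% and 37.5%. Over 21044 promoters of protein-coding genes the shares were 61.4%, 61.1%, 53.9% and 54.9%, so the Hox shares were the lower ones in each library. The windows overlapped in all 4 libraries were those of Hoxa3, Hoxa11, Hoxa13, Hoxb4, Hoxd13 and the upstream of 2 starts of Hoxa10. The windows overlapped in none belonged to Hoxa5, Hoxa6, Hoxa7, Hoxa9, Hoxb8, Hoxd3, Hoxd4 and 1 of 2 starts of Hoxd11. Sequence did not separate these sets in a simple way. The observed to expected CpG ratio had a median of 0.722 in the 6 accessible windows and 0.662 in the 8 without a region. Hoxa5, without a region, had the highest of the 24 windows at 1.02. Over all 24 windows, CCAAT was found in 15 (62.5%, against 38.5% of all promoters), GGGCGG in 10 (41.7% against 46.7%), TGATTNAT in 2 (8.33% against 2.78%), TGACAG in 2 (8.33% against 18.3%) and the other 2 motifs in none. Hoxa2, which patterns the second pharyngeal arch, held both a TGATTNAT and a TGACAG match and 4 of CCAAT.

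In the authors' full lists, DN3 thymocytes had about as many Hox regions as naive cells in HoxA and more in HoxB, HoxC and HoxD. HoxA held 17 and 18 regions in the DN3 pair (control, then knockout) and 16 and 16 in the naive pair. HoxB held 28 and 23 against 16 and 17. HoxC held 23 and 22 against 5 and 7, and HoxD 25 and 23 against 7 and 9. In total this was 93 and 86 regions in the DN3 libraries and 44 and 49 in the naive ones. The share of the cluster windows covered followed the same order. In HoxC it was 12.8% and 10.4% in the DN3 pair and 4.04% and 4.34% in the naive pair, in HoxD 15.9% and 13.8% against 4.62% and 5.88%, in HoxB 13.5% and 11.3% against 9.35% and 9.56%, and in HoxA 17.2% and 16.6% against 15.7% and 14.6%. Over the windows of all protein-coding genes it was 3.71%, 3.58%, 2.86% and 2.68% in the same order of libraries. The HoxC and HoxD coverage thus lay above that level in every library, and closer to it in the naive ones.

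**Figure D1:**
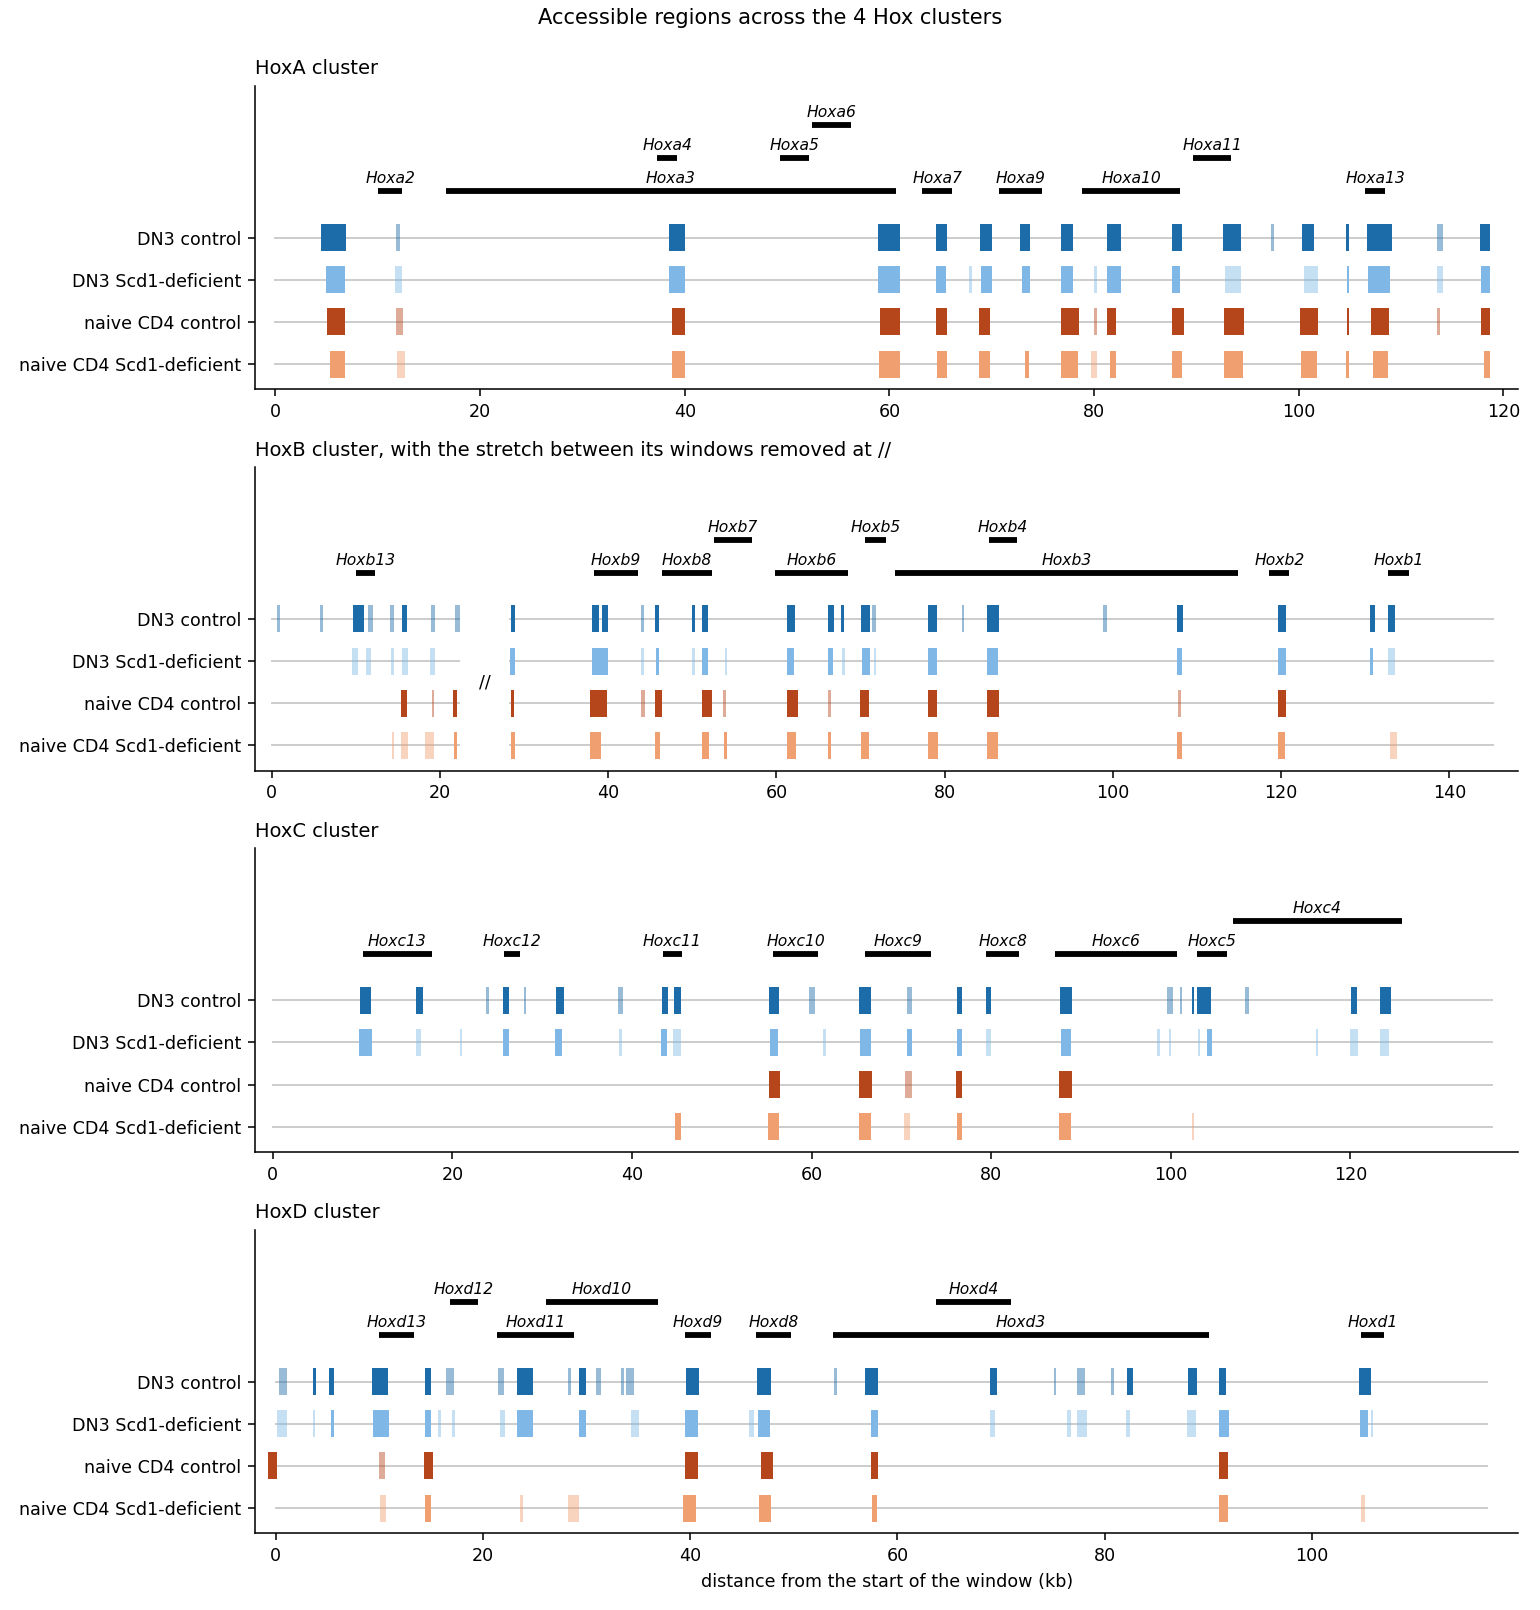
Position of every region in the 4 Hox clusters by library, with distance from the start of the window in kb on the x axis, 1 row per library and gene bodies as black bars. Full colour marks a −log10 q of 10 or more, pale colour weaker regions. HoxA looks alike in the 4 rows, while in HoxC and HoxD the naive rows hold a few regions and lack many of the pale and full-coloured ones seen in DN3.

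The excess in DN3 rested in large part on weak regions. The DN3 lists are longer than the naive ones, and Hox regions stood low within them, where their median −log10 q was 13.8 (DN3 control) and 10.2 (DN3 knockout) against 33.8 and 30.5 over all regions. In the naive lists the median was 23.5 and 30.9 against 53.5 and 41.1. Each list was next cut to its 46576 strongest regions. In the DN3 lists this removed those with a −log10 q under 22.9 (control) and 20.2 (knockout). In the naive knockout it removed those under 5.91, and the naive control list lost none. The order turned at these unlike cuts. Then 30 and 29 Hox regions were left in the DN3 libraries against 44 and 44 in the naive ones. HoxA had 10 and 10 against 16 and 16, HoxB 10 and 9 against 16 and 15, HoxC 4 and 4 against 5 and 6, and HoxD 6 and 6 against 7 and 7. At a −log10 q of at least 10 in every list, HoxC kept 15 and 10 against 4 and 5 and HoxD 14 and 10 against 6 and 5, while the values of the cell types overlapped in HoxA (14 and 12 against 13 and 14) and HoxB (18 and 12 against 11 and 13). In total, 61 and 44 DN3 Hox regions stood against 34 and 37 naive ones at this common cut, so the order did not turn there. The whole lists had the same order at this cut, with 61989 and 59805 DN3 regions against 40146 and 42166 naive ones. It was passed by 65.6%, 51.2%, 77.3% and 75.5% of Hox regions (DN3 pair, then naive pair). Over all regions 80.7%, 78.2%, 86.2% and 82.2% passed. The order of the Hox counts turned where the lists were cut to equal length, at a −log10 q that differed between the cell types.

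**Figure D2:**
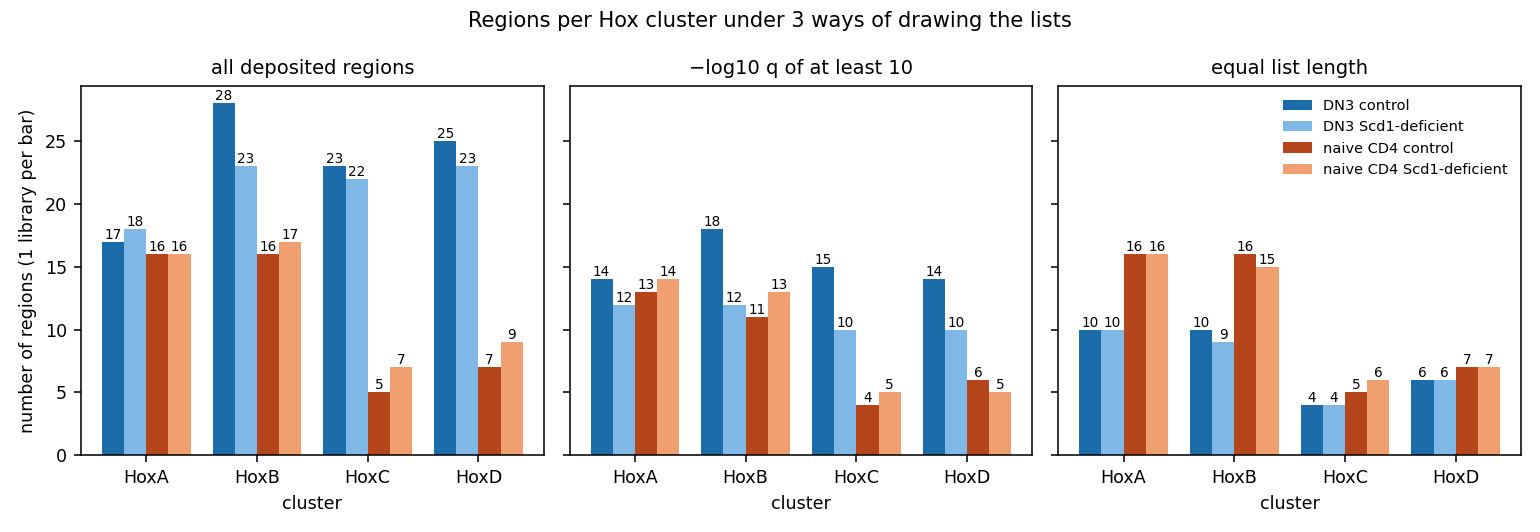
Number of regions per cluster and library (y axis, 1 library per bar) in the full lists, at a −log10 q of at least 10, and in the 46576 strongest regions of each list. DN3 is above naive in HoxC and HoxD in the first and second panels, and below it in every cluster in the last.

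The strongest regions were shared by the cell types and lay at the same places. In HoxA they were 3 in every library: one in the flank of Hoxa2 over the long noncoding RNAs Hotairm1 and Hotairm2, one over the upper end of Hoxa4, which lies inside the long Hoxa3 gene, and one at the upper end of Hoxa3. In HoxB the regions at Hoxb4 and inside Hoxb3 were among the 3 strongest in every library. The remaining one was inside Hoxb6 in the DN3 libraries and the naive knockout, and beside Hoxb8 in the naive control. In HoxC the first and second places were held in every library by a region inside Hoxc6 and one with its summit about 2908 bp from Hoxc8. In HoxD the region inside Hoxd3 and one past its end, inside the noncoding RNA Haglr, were in the first 3 in every library. By −log10 q these were far from the top of the lists. The strongest Hox region of the DN3 control, inside Hoxd3, was number 13133 of 76814, and that of the naive control, in the flank of Hoxa2, was number 10334 of 46576. HoxA regions were wide, with a median of 1125 and 1070 bp in the DN3 pair (control, then knockout) and 1132 and 1026.5 bp in the naive pair, against 666, 645, 894 and 732 bp over all regions. The widest Hox region of each library was in HoxA: 2481 bp in the flank of Hoxa2 in the DN3 control, 2135 bp at Hoxa13 in the DN3 knockout, and 2039 and 2116 bp at the upper end of Hoxa3 in the naive pair.

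Among the anterior members, of paralog groups 1 to 3, Hoxa3 stood out. This gene, needed for the thymus and parathyroid to form, had a region at its upper end on chr6:52211307-52213492 with a −log10 q of 109.8 and 94.5 in the DN3 pair (control, then knockout) and 163 and 167 in the naive pair. Hoxb2, a hindbrain gene, had 60.03, 44.7, 22.3 and 32.9 in the same order of libraries, so all 4 were called and the naive values were the lower ones in their own lists. Hoxa2 was called weakly in all 4, with 9.38, 6.97, 3.52 and 6.64. Hoxb1, a gene of the fourth rhombomere, had 21.5 and 8.92 in DN3, none in the naive control and 4.53 in the naive knockout. Hoxd1 followed the same pattern, with 56.9 and 45.6 in DN3, none in the naive control and 5.21 in the naive knockout. At Hoxd3 the region near the gene's upper end had 56.0, 72.5 and 60.8 in the DN3 control, naive control and naive knockout. In the DN3 knockout the same region was called, with 46.6, but began just over 1 kb from the gene. Hoxb3 had no region at either gene end, although 2 of the 3 strongest HoxB regions of each library lay within its body. These calls used a distance of 1 kb to either annotated end of a gene.

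Of the central members, of groups 4 to 8, Hoxb4 and Hoxa4 had the strongest gene-end regions. Hoxb4, which expands blood stem cells when it is overexpressed, had a region on chr11:96318077-96319536 with a −log10 q of 92.5 and 101 in DN3 and 136 and 92.5 in the naive pair. Hoxa4 shared the region inside Hoxa3, with 107, 85.7, 149.8 and 148. Hoxa7 had 75.7, 66.9, 64.7 and 34.0. Hoxb5 had 48.4, 44.6, 32.8 and 64.03, and Hoxb7 and Hoxb8 shared a region with 52.0, 55.9, 65.6 and 61.9. Hoxb8 had a second one, which was the stronger in the naive pair at 77.1 and 67.4. Hoxc6 had 54.7, 50.2, 66.0 and 69.5, and Hoxd8 21.5, 16.1, 21.7 and 23.1. All of these had a region in both cell types and both genotypes. Hoxb6 (11.1 and 8.42) and Hoxc8, a gene of thoracic identity (22.6 and 8.32), were called at a gene end in DN3 and in neither naive library. A stronger region inside Hoxb6, more than 1 kb from its ends, was called in all 4 libraries, with 91.1, 58.5, 71.4 and 79.0. Hoxc5 had 11.9 and 7.69 in DN3 and 4.53 in the naive knockout. Hoxa5, Hoxa6, Hoxc4 and Hoxd4 had no gene-end region in any library. Over the gene body, Hoxc4 had 3 and 3 regions in the DN3 pair and Hoxd4 1 and 1, and neither had one in a naive library. The promoter window of an annotated Hoxc4 start inside the gene was overlapped in the DN3 control alone (12.9). Hoxa5 and Hoxa6 lay whole inside a stretch of 18.8 kb in which no library had a region.

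The posterior members, of groups 9 to 13, differed by cluster. In HoxA all 4 were called in all 4 libraries. Hoxa9, a gene of blood progenitors and of early thymocytes that is often raised in leukaemia, had 85.8 and 71.1 in DN3 and 120.0 and 142 in the naive pair, at a region with its summit between Hoxa9 and Hoxa7. Hoxa10, which acts beside it in progenitors, had 65.1, 69.9, 118 and 115. Hoxa11 had 11.6 and 6.86 in DN3 and 118 and 21.6 in the naive pair, and the naive control value came from the region it shares with Hoxa10. Hoxa13, a gene of the digits and the urogenital tract, had 51.6, 56.7, 24.6 and 36.6. Hoxb9 (36.6, 29.6, 19.3 and 39.1), Hoxc9 (23.1, 22.9, 21.1 and 31.8), Hoxc10 (27.6, 22.2, 29.0 and 39.0), Hoxd9 (26.4, 21.4, 32.8 and 31.4) and Hoxd13 were also called in all 4. At Hoxd13 the region over the gene had 30.8, 16.8, 7.04 and 6.91. A second region beyond its end had 35.6, 24.6, 44.8 and 42.9, and lay within 1 kb in the controls and just over 1 kb away in the knockouts. The end of HoxC was not. Hoxc13, a gene of hair and nails, had 22.2 and 17.9 and Hoxc12 13.6 and 11.6 in DN3, and neither had a region in a naive library. Hoxc11 had 21.4 and 15.5 in DN3, none in the naive control and 11.4 in the naive knockout. In the naive control no region was called over the first 55.2 kb of the HoxC window, which holds Hoxc11, Hoxc12 and Hoxc13, nor over the last 46.8 kb, which holds Hoxc4 and Hoxc5. Its 5 HoxC regions lay within 33.8 kb from Hoxc10 to Hoxc6. In the naive knockout the first stretch was 44.8 kb long and the last 33.1 kb. Hoxb13, of the tail bud and prostate, had 10.2 and 8.49 in DN3 alone and Hoxd12 4.33 and 3.09. Hoxd11 had 10.9 and 10.1 in DN3, at a region with its summit inside Hoxd10, and 7.004 in the naive knockout. Another region inside Hoxd11 had 12.9 and 13.9 in DN3 and 2.65 in the naive knockout. Hoxd10 had no gene-end region, but over its body lay 5 and 2 regions in the DN3 pair and 0 and 1 in the naive pair.

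In sum over the members, 32 and 31 of 38 had a gene-end region in the DN3 pair (control, then knockout) and 21 and 26 in the naive pair, against 66.7%, 66.5%, 57.0% and 58.6% of all protein-coding genes. Counting any region in the window of a member, all 38 were reached in both DN3 libraries and 32 and 36 in the naive pair, against 79.1%, 78.9%, 70.3% and 71.8% of all genes. Over the gene body the counts were 35, 36, 22 and 28, against 73.4%, 73.2%, 63.9% and 65.5% of all genes. As shares of the members the gene-end counts were 84.2%, 81.6%, 55.3% and 68.4%. The DN3 and naive knockout shares were above the level of all genes and the naive control share was just under it. Of the members, 20 were called in all 4 libraries (56.1% of all genes), 6 in both DN3 and neither naive library (7.56% of all genes), 0 in both naive and neither DN3 library (0.347% of all genes) and 6 in none (31.8% of all genes). Neighbouring members often shared a region, so the members are not independent of each other. With the lists cut to equal length, 19 and 17 members were called in DN3 against 21 and 23 in the naive pair, against 60.3%, 60.1%, 57.0% and 57.4% of all genes at that length, and the order turned here as well.

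**Figure D3:**
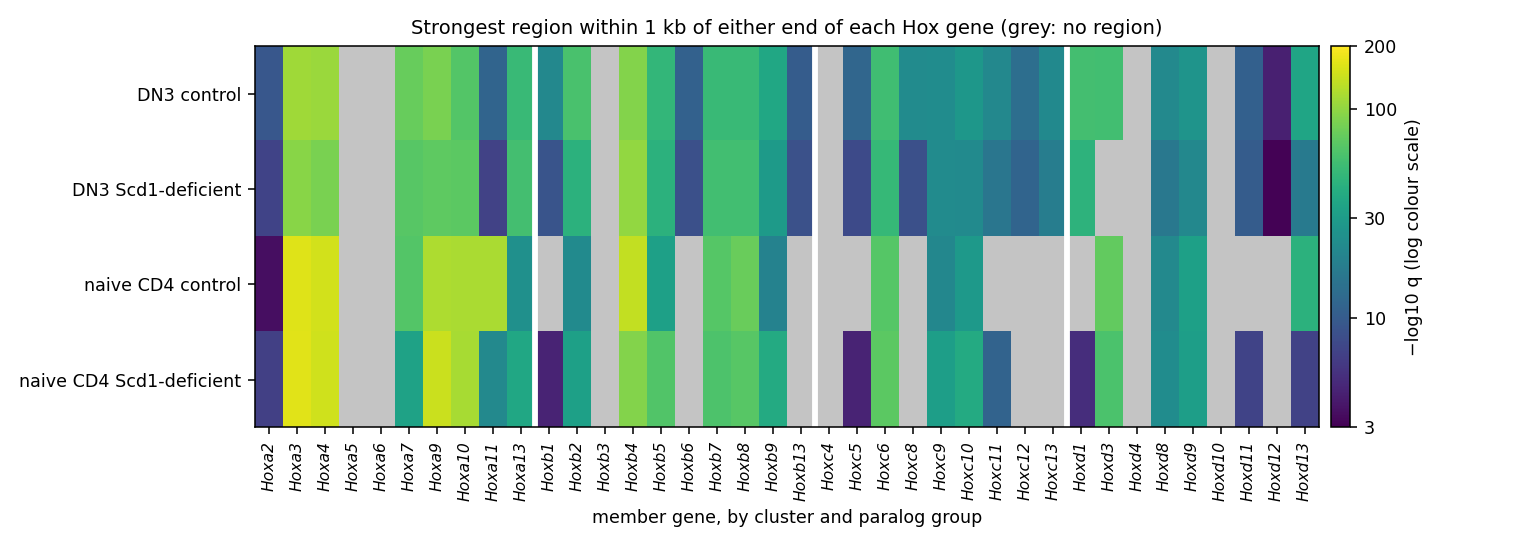
Highest −log10 q of a region within 1 kb of either end of each of the 38 Hox genes (x axis, by cluster and paralog group) in each library (y axis), on a log colour scale, with grey for no region. HoxA is filled in all rows except Hoxa5 and Hoxa6, and the grey cells of the naive rows gather in HoxC and HoxD.

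When the 4 lists were joined, overlapping regions merged into 90270 joint regions, of which 102 lay in the Hox windows. Of these 102, 39 were called in all 4 libraries (38.2%, with 41.5% over all joint regions) and 27 in both DN3 and neither naive library (26.5%, with 28.3% over all). None was called in both naive and neither DN3 library, where the share over all joint regions was 5.11%. The 3 counts taken over the whole of the Hox windows were thus near the level of all regions for the first 2 patterns. The clusters differed among themselves. Of the 19 joint regions of HoxA, 14 were shared by all 4 libraries and 0 were limited to both DN3 libraries. In HoxB these were 13 and 6 of 28, in HoxC 5 and 11 of 27, and in HoxD 7 and 10 of 28. By position in the cluster the share called in all 4 varied little, with 9 of 21 anterior, 10 of 27 central and 20 of 54 posterior regions. At equal list length the number called in both DN3 and neither naive library fell to 1 and the number called in both naive and neither DN3 library rose to 12, of 49 joint Hox regions. These are 2.04% and 24.5%, against 16.1% and 14.8% of all joint regions at that length.

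The 27 regions of both DN3 libraries were low. The whole number of fragments at each summit could be recovered from the deposited values, and dividing it by the lowest background in the list gave a height as a fold over the genome background. Their height had a median of 9.11 (range 5.30 to 13.8) in the DN3 control and 7.38 (4.69 to 14.5) in the DN3 knockout. The lowest Hox region called in the naive libraries reached heights of 3.71 (control) and 3.56 (knockout), below all of these. A call also depends on local background: in the naive control a Hoxa10 region of height 7.23 had a −log10 q of only 2.66. The heights therefore do not show whether regions as low as the 27 would have been called in naive cells. Of the 27, 21 had their summit inside a member. A −log10 q of 10 was reached by 19 of them in the control library and by 8 in the knockout library. The strongest in the DN3 control were those at Hoxc8 (22.6), with the summit 1863 bp from Hoxb1 (22.2), at Hoxc13 (22.2) and at Hoxc11 (21.4).

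Compared list against list, 51 of 93 Hox regions of the DN3 control had no counterpart in the naive control, meaning no region overlapping by at least 1 bp. This is 54.8% (Wilson 95% interval 44.7 to 64.6, for counting error only), against 47.2% of all DN3 control regions. By cluster it was 2 of 17 in HoxA, 12 of 28 in HoxB, 18 of 23 in HoxC and 19 of 25 in HoxD. In the knockouts it was 40 of 86, or 46.5% (36.3 to 57.0), against 43.3% of all, with 2 of 18, 7 of 23, 16 of 22 and 15 of 23 by cluster. The order of the clusters was the same in both genotypes, with HoxA lowest and HoxC and HoxD highest. In the other direction 2 of 44 Hox regions of the naive control (4.55%, interval 1.26 to 15.1) and 3 of 49 of the naive knockout (6.12%, 2.10 to 16.5) had no DN3 counterpart, against 15.0% and 16.0% of all regions. At equal list length the directions exchanged: 1 of 30 and 2 of 29 DN3 regions and 15 of 44 and 17 of 44 naive regions then lacked a counterpart. Over all regions these shares were 29.6% and 27.8% in DN3 and 30.1% and 27.8% in the naive lists, so the DN3 shares of 3.33% and 6.90% were the ones far from the general level.

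In the 39 regions called in all 4 libraries the heights of the cell types could be set side by side. Both naive heights were above both DN3 heights in 12 regions (30.8%, with 53.0% over all 37418 common regions), both DN3 heights were above in 12 (30.8%, with 29.4% over all), and in 15 the cell types overlapped. The median log2 difference of naive over DN3 was 0.07, against 0.30 over all common regions, so relative to all regions the Hox ones were 0.23 lower in naive cells. HoxA held 7 of the regions higher in naive cells and 5 of those higher in DN3, HoxB 4 and 4, HoxC 0 and 1, and HoxD 1 and 2. The one in the flank of Hoxa2 had heights of 36.0 and 33.5 in the DN3 pair and 60.2 and 64.6 in the naive pair. The one at the upper end of Hoxa3 had 46.0 and 43.4 against 56.9 and 70.1, and the upstream Hoxa10 promoter 26.3 and 27.5 against 35.6 and 45.4. At Hoxa11 they were 14.0 and 10.95 against 20.1 and 18.1. The opposite was seen in HoxA at Hoxa7, with 45.3 and 42.5 in DN3 against 38.9 and 33.4 in naive cells, and at Hoxa13, with 27.7 and 29.7 against 16.4 and 25.5. It was also seen at Hoxd13, the gene of the distal digits, with 17.2 and 12.3 in DN3 against 5.86 and 7.39 in naive cells, and inside Hoxd3 with 34.7 and 30.6 against 12.7 and 23.8. Hoxb2 had 20.3 and 16.5 against 8.21 and 13.4. In each of these the pairs did not overlap.

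**Figure D4:**
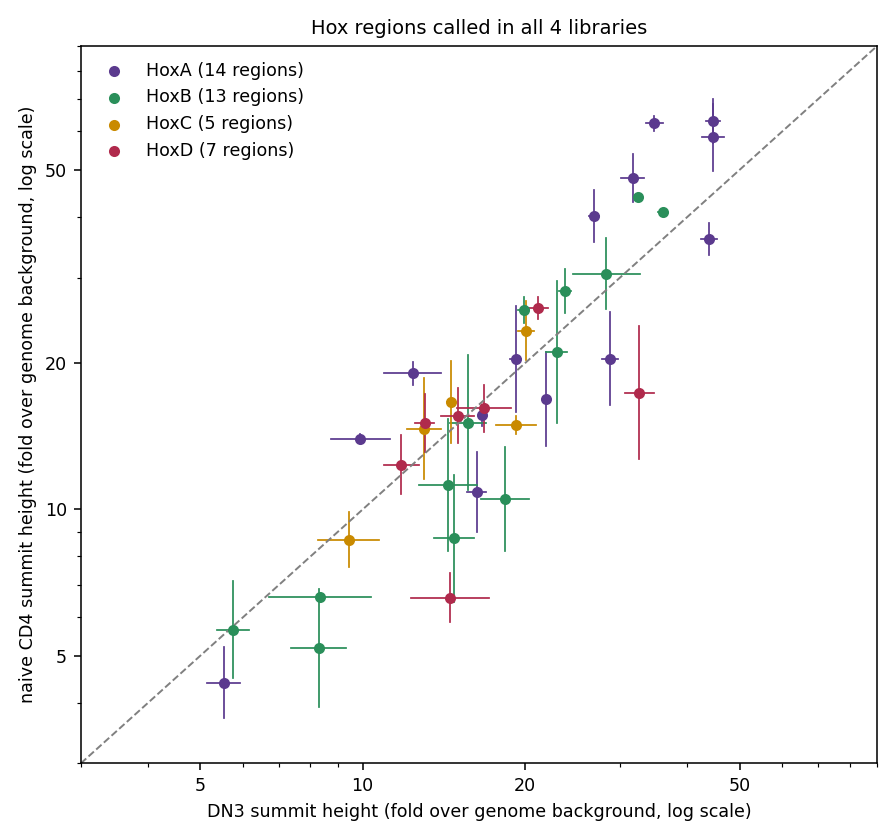
Summit height of the 39 Hox regions called in all 4 libraries, as a fold over genome background on log axes, DN3 on x and naive CD4 on y. Points are the geometric mean of control and knockout and lines reach from the lower to the higher of the pair. The Hoxa2 flank and Hoxa3 regions of HoxA lie above the dashed line of equality, and the Hoxa7 region and the Hoxd13 and Hoxd3 regions of HoxD below it.

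Between the genotypes, most Hox regions without a counterpart in the full lists were weak. In DN3 cells 18 of 93 control regions had no knockout counterpart, or 19.4% (12.6 to 28.5), against 10.4% of all control regions. Conversely, 10 of 86 knockout regions lacked a control counterpart, a share of 11.6% (6.44 to 20.1), against 9.48% of all. The median −log10 q of the regions without a counterpart was 4.54 (control) and 3.96 (knockout). With both DN3 lists held to a −log10 q of 10 or more, 17 of 61 control regions (27.9%, against 9.20% of all) and 1 of 44 knockout regions (2.27%, against 5.64% of all) lacked a counterpart. In naive cells 2 of 44 control regions (4.55%, 1.26 to 15.1, against 5.77% of all) and 8 of 49 knockout regions (16.3%, 8.51 to 29.0, against 12.4% of all) had none. In the full lists 3 of these 38 regions had a −log10 q of at least 10. They were a DN3 control region with its summit 342 bp from Hoxc5 (10.3), a naive knockout region at Hoxc11 (11.4) and a naive knockout region inside Hoxa9 (10.1). The last 2 overlapped regions of both DN3 libraries, and a weak region of the naive knockout (4.53) lay over the first.

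In the common regions the knockout was lower than the control in DN3 at 32 of 39 regions, where the share over all common regions was 50.6%. The median log2 height of knockout over control was −0.12, against a value near 0 over all. The largest such difference was at a region with its summit 3577 bp from Hoxb13, with heights of 10.4 and 6.70. In naive cells the knockout was lower at 6 of 39, where the share over all was 26.3%, and the median log2 height was 0.40, against 0.16 over all. Hoxb5 had the largest naive difference, from 15.1 in the control to 29.6 in the knockout, and the region inside Hoxd3 went from 12.7 to 23.8. The naive direction depended on the scaling. Without division by the background, which was 5.12 fragments in the naive control and 3.65 in the naive knockout, the median was −0.09, against −0.32 over all, and the knockout was lower at 23 of 39. Centred on all common regions it was 0.23, with 10 of 39 lower. In DN3 the knockout was lower under all 3 scalings, at 32, 34 and 31 of 39 regions.

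**Figure D5:**
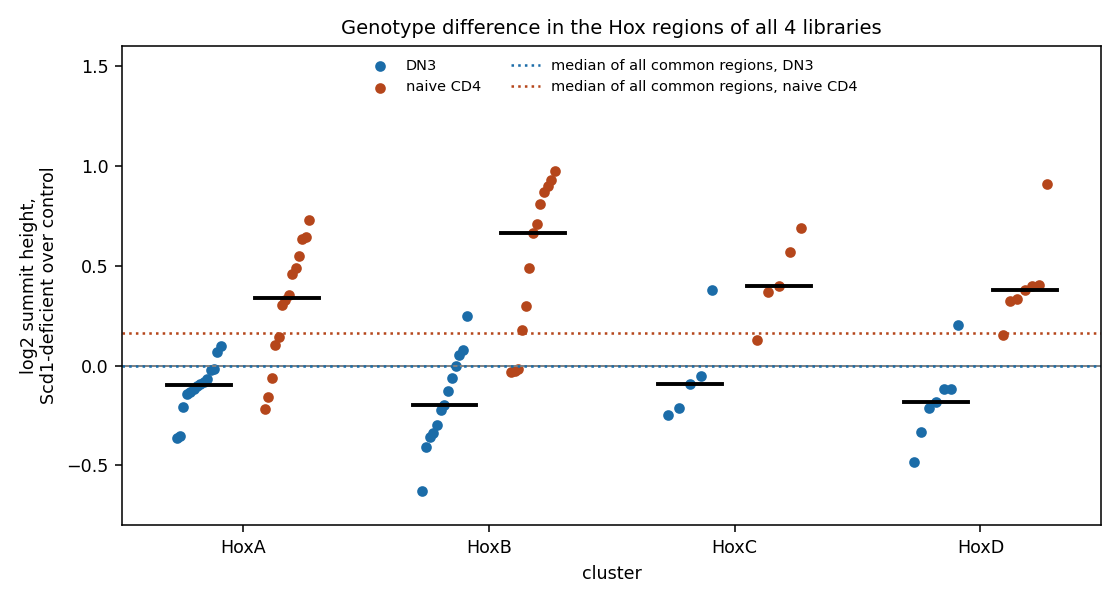
Log2 ratio of summit height, knockout over control, for the 39 common Hox regions by cluster, in DN3 (blue) and naive CD4 cells (brown). Black bars are medians and dotted lines the medians of all common regions. Most DN3 points lie under 0 and most naive points over it, on the scale of height over genome background.

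Long noncoding RNAs of the clusters were covered unevenly. Hotair, in HoxC, which recruits repressors to other Hox genes in some systems, had no region over it in any library. Hottip, beside Hoxa13, had weak ones of 3.72 and 6.25 in DN3 and 2.29 in the naive control, and none in the naive knockout. Hoxd3os1, opposite Hoxd3, had the region inside Hoxd3 in all 4, with 126, 103, 41.5 and 68.4, and without strand the signal cannot be assigned to either gene. Gm31790 and Gm30528 had regions in the DN3 libraries alone.

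Of the regulators of Hox genes and partners of Hox proteins, most had a gene-end region in every library. Over all protein-coding genes the shares were 66.7% and 66.5% in DN3 and 57.0% and 58.6% in the naive pair, and 56.1% were called in all 4. It was called at all 27 Polycomb genes in all 4 libraries and at 13, 13, 12 and 12 of 14 Trithorax-type genes. Kmt2a had a −log10 q of 218, 210.1, 348 and 324. Of 11 TALE cofactor genes, 11 and 11 were called in DN3 and 9 and 11 in the naive pair. Meis1, the Hox partner of stem and progenitor cells, had 40.6 and 42.1 in DN3, none in the naive control and 6.64 in the naive knockout. Meis2 had 28.4 and 18.5 in DN3 and 4.53 in the naive knockout. Of 6 caudal and ParaHox genes, relatives of the Hox genes, 5 and 5 were called in DN3 and 2 and 3 in the naive pair. Cdx2, an activator of Hox genes in the embryo, had 81.5 and 57.3 in DN3 and 20.6 in the naive knockout. Of 8 genes tied to retinoic acid, which itself induces Hox genes in the embryo, 6 and 6 were called in DN3 and 4 and 4 in the naive pair. Of 17 genes that neighbour the clusters, 17 and 17 were called in DN3 and 13 and 13 in the naive pair. Those without a naive gene-end region were Evx1, Evx2, Ttll6 and Calcoco2. Evx2 had a region inside the gene in both naive libraries, with 24.0 and 26.4. Of 8 loop factor genes, 6, 5, 5 and 5 were called, near the shares of all genes.

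Genes of other cell types moved with the Hox counts in part, and are set against the same shares of all genes (66.7% and 66.5% in DN3, 57.0% and 58.6% in the naive pair). Of 9 stromal and endothelial markers, 6 and 6 had a gene-end region in DN3, at the level of all genes, and 2 and 3 in the naive pair, below it. Of 6 thymic epithelial markers 5 and 4 were called against 2 and 2. Col3a1 and Pecam1 of the first list and Krt5 of the second were called in no library, while Foxn1, the defining factor of thymic epithelium, had 19.95 and 19.3 in DN3 alone. Of 9 early progenitor markers, 9 and 9 were called in DN3 and 7 and 8 in the naive pair, with Lmo2 called in DN3 alone (71.9 and 52.4). B cell markers ran the other way, with 3 and 3 of 7 against 4 and 4, as Cd79a had 54.5 and 53.8 in the naive pair, none in the DN3 control and 3.36 in the DN3 knockout. Of 8 myeloid and dendritic markers, 2, 3, 2 and 2 were called, with Csf1r, Cebpe, Mpo and Elane in none, and of 5 erythroid markers 4 in each library. The part of such cells in the Hox regions of the DN3 libraries was not tested.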

How the data were processed

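ATAC-seq peak lists of 4 libraries, 1 per genotype and cell type, were used. Per the submitters' processing notes, reads were processed with Trimmomatic, BWA and MACS2 on build mm10. The sources used here do not state versions, MACS2 settings, duplicate handling or any Tn5 shift. Each list belongs to 1 library. The deposited score follows the −log10 q. The deposited fold is a ratio of summit fragments to local background. The deposited −log10 p and −log10 q are those of each summit in that list. All are the authors' values. They grow with depth, and read depth is unknown here.

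From fold and −log10 p the fragment number at each summit was recovered, whole within 0.05 for 100% of peaks. The genome background was the lowest local background in a list: 4.72, 4.47, 5.12 and 3.65 fragments in the DN3 control, DN3 knockout, naive control and naive knockout. Local background was raised above it at 96.8%, 96.5%, 90.9% and 83.7% of Hox regions in the same order, against 74.6%, 73.2%, 74.8% and 73.8% of all. Fragments can include PCR copies. Wilson intervals were taken over numbers of regions, not fragments, and describe counting error alone.

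Chromosomes 1 to 19 and X were used. Genes came from RefSeq (GRCm38.p6, the assembly of mm10). Its gene table gives no exons, introns or strand, and the promoter table gives strand for 22 members, so a gene-end region lies within 1 kb of either end. Members, gene lists and the rule for named regions were chosen with earlier results of these data known. Named were the 3 strongest regions per cluster and library, the widest region per library, strong regions (−log10 q of 10 or more) of 1 genotype alone, and members of the 15 lists whose calls differ. Other regions named in the text were chosen after their values were seen. A distance given for a summit is from the summit to the gene body, and gene-end calls and microRNA distances use the region's edge. Alternatives were a −log10 q of at least 10, equal list length, a distance of 500 bp, overlap of 50% of a region and windows of 2 kb. Overlap and fragment recovery were tested on simulated data. Python 3.11.15, numpy 2.4.6, pandas 2.3.3 and scipy 1.17.1 were used. Of 158 listed symbols 157 matched. No test was made, as each group is 1 library.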

Additional observations from a re-analysis of the deposited data

Results flagged for a closer look

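Some values moved in opposite directions between the genotypes in the 2 cell types. The knockout had fewer Hox regions than the control in DN3 and more in naive cells, with a difference of −7 against 5 over the 4 clusters (93 to 86, and 44 to 49). It was −5 against 1 in HoxB (28 to 23, and 16 to 17), −1 against 2 in HoxC (23 to 22, and 5 to 7) and −2 against 2 in HoxD (25 to 23, and 7 to 9). HoxA went from 17 to 18 in DN3 and stayed at 16 in naive cells. At equal list length the totals were 30 to 29 and 44 to 44. The median log2 height of knockout over control in the common Hox regions was −0.12 in DN3 and 0.40 in naive cells, and without scaling to the background it was −0.19 and −0.09. With 1 library per group these differences were not tested.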

How the results depend on the processing

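No paired analysis was possible because each group has 1 library and the labels give no replicate numbers, so leaving out a replicate was not possible either. Equal list length moved 12 of 17 results and a −log10 q of at least 10 moved 5 of 17. Hox regions numbered 61 in the DN3 control and 44 in the DN3 knockout at a −log10 q of at least 10, and 30 and 29 at equal length. Members with a gene-end region numbered 19 and 17 in these libraries at equal length. Joint Hox regions of both DN3 and neither naive library numbered 11 of 64 at the stricter q (17.2%, against 28.4% of all joint regions). At equal length they numbered 1 of 49 (2.04%, against 16.1% of all). At equal length the share without a counterpart in the other cell type was 3.33% in the DN3 control, 6.90% in the DN3 knockout, 34.1% in the naive control and 38.6% in the naive knockout. Between genotypes it was then 6.67% of DN3 control, 3.45% of DN3 knockout and 6.82% of naive knockout Hox regions. Over all regions these shares were 6.72%, 6.53% and 7.90%. At the stricter q, 27.3% of DN3 knockout Hox regions lacked a naive counterpart, below the 40.03% of all regions. In the full lists that Hox share was 46.5%, above the 43.3% of all. In the DN3 control the Hox share stayed above at the stricter q, with 45.9% against 43.7% of all. A DN3 control counterpart was lacking for 2.27% of DN3 knockout Hox regions at the stricter q, against 5.64% of all. Windows of 2 kb (8 results), a gene-end distance of 500 bp (4) and overlap of 50% of the region (8) kept each result within its limit. Both scalings of height were chosen after the data were seen. Without scaling, the median log2 height turned to −0.089 for naive knockout over control and to −0.022 for naive over DN3, and centred on all common regions the latter turned to −0.23. Equal length drops regions by construction. The cause of the other changes was not tested. With 1 library per group, spread between animals is unknown.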
